A study of Mus musculus with 14 samples.

Results

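The Janus kinases (JAKs) and the signal transducers and activators of transcription (STATs) carry the signal of most cytokine receptors in T cells. The 4 kinase genes Jak1, Jak2, Jak3 and Tyk2 and the 5 factor genes Stat3, Stat4, Stat5a, Stat5b and Stat6 were taken from the deposited count table by gene symbol. These 9 genes are among 26683 symbols in the table, and all 9 were among the 13427 genes expressed highly enough to test.

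CD4 T cells from the spleens of female mice aged 8 months were sequenced. The groups were follicular helper T cells (Tfh) and naive cells (Tn) of the lupus-prone strain TC, with 3 libraries of each, and Tfh and Tn of C57BL/6J (B6), with 4 libraries of each. Tfh were gated as CD4+CD44+CD162lo/-PD-1+ and Tn as CD4+CD44-, and each of the 7 mice gave a library of either kind. TC, whose full name is B6.NZM-Sle1NZM2410/AegSle2NZM2410/AegSle3NZM2410/Aeg/LmoJ, is congenic for the Sle1, Sle2 and Sle3 lupus intervals of NZM2410 on the B6 background. TC mice therefore differ from B6 at many genes at once, and no strain with only 1 of the intervals was included. The Tfh gate has no marker that removes regulatory T cells.

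In this pathway a cytokine joins receptor chains that each hold a JAK, the kinases phosphorylate each other and the receptor, and STAT proteins bind there, are phosphorylated and move to the nucleus as dimers. JAK1 with JAK3 serves receptors that contain the common gamma chain (interleukin-2, 4, 7, 15 and 21), JAK2 with TYK2 serves the interleukin-12 receptor, and JAK1 with JAK2 or TYK2 serves interleukin-6 and interferon receptors. In mouse T cells STAT3 is best known downstream of interleukin-6 and interleukin-21, STAT4 of interleukin-12, STAT5 of interleukin-2 and interleukin-7, and STAT6 of interleukin-4. Transcript levels, which are what was measured, do not show how much of any protein was phosphorylated.

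Library totals ran from 15162309 to 20191558 counts. Transcripts of the proteins used for gating separated the populations. Pdcd1, which encodes PD-1, averaged 472 ± 87.9 CPM (counts scaled to a common library size) in TC Tfh and 5.70 ± 1.31 CPM in TC Tn, and 660.3 ± 68.7 CPM in B6 Tfh and 8.40 ± 1.84 CPM in B6 Tn (SD, n = 3 TC and 4 B6 libraries). Summed CPM of 6 Tfh markers was 1698 to 1897 in TC Tfh against 139.8 to 156 in TC Tn, and 1870.1 to 2036 in B6 Tfh against 136 to 162 in B6 Tn. Of the counts, ribosomal protein genes took 2.68 ± 0.04% in TC Tfh and 5.76 ± 0.29% in TC Tn, and 3.70 ± 0.42% in B6 Tfh and 7.94 ± 0.53% in B6 Tn, so this share differed by cell type and by strain.

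Promoter sequence is shown for Jak3, the gene that differed most between the strains, and for Jak2 and Stat4, the genes that differed most between Tfh and Tn. Each run is the 250 bases before the RefSeq transcription start, 5′ to 3′ on the gene's own strand (plus for all 3), in build GRCm38.p6. The windows are chr8:71676133-71676382 for Jak3, chr19:29251553-29251802 for Jak2 and chr1:51986898-51987147 for Stat4. The GENCODE M21 annotation starts Jak3 at 71676296, inside its window, and Jak2 at 29251828, downstream of the RefSeq start. Motif positions for these genes therefore depend on the annotation used. Capitals mark GC boxes (GGGCGG, or CCGCCC on the other strand) and CCAAT boxes (CCAAT, or ATTGG on the other strand).
Jak3: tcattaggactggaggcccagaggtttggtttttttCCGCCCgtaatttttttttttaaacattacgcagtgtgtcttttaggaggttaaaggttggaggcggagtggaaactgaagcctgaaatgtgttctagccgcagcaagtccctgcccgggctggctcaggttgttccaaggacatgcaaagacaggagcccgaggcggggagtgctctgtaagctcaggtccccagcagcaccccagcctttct
Jak2: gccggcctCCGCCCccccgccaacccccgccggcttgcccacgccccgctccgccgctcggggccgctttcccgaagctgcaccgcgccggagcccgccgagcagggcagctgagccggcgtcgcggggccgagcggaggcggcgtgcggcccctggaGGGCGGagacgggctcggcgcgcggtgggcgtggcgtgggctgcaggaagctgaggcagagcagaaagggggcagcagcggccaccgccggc
Stat4: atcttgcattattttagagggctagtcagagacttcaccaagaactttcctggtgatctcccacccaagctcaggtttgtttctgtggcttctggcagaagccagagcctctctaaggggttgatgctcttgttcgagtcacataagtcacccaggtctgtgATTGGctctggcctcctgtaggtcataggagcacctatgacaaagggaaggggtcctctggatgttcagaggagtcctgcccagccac

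RefSeq gave 12 such windows for the 9 genes. The palindromic STAT site TTCNNNGAA was found in 0 of the 12 windows, and the form with a spacer of 4 bases between TTC and GAA also in 0. Among all 32851 RefSeq mouse promoters of the same length, 7.02% held TTCNNNGAA and 5.85% held the form with 4 bases. A GC box was in 7 of the 12 windows (32.7% of all promoters) and a CCAAT box in 4 of 12 (33.8%). The ETS core CCGGAA and the RUNX site TGTGGT were each in 1 window, in a Stat5b and in the Stat6 window (12% and 14% of all promoters). Both strands were searched for each motif, and matches to different motifs were allowed to overlap. The Jak3 window, with a G and C content of 52.4%, has its GC box 214 bases upstream, at position -214, the Jak2 window (80.8% G and C) has GC boxes at -242 and -92, and the Stat4 window (51.6%) has a CCAAT box at -88.

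All 9 genes were well detected in every group. Levels are given as CPM on library totals scaled by the trimmed mean of M-values (TMM), the scale on which the tests were run. To rank genes against each other, CPM was divided by the summed length of a gene's exons in kilobases (kb). On that scale Jak3 stood first in TC Tfh at 177 ± 5.64 CPM per kb, above Jak1 at 134 ± 1.94 CPM per kb. In the other 3 groups Jak1 stood first, at 183 ± 4.15 CPM per kb in TC Tn, 135 ± 4.93 in B6 Tfh and 192 ± 2.56 in B6 Tn. Jak3 was the next gene in TC Tn (113 ± 8.42 CPM per kb) and B6 Tfh (85.3 ± 3.96), whereas in B6 Tn it stood below Jak1, Stat6 and Stat5b, at 55.6 ± 1.38 CPM per kb, with a range that overlapped that of Stat5b.

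Stat5a stood last in all 4 groups, at 15.03 ± 0.27 to 19.9 ± 1.84 CPM per kb. Stat6 was the highest STAT gene per kb in all 4 groups, with 78.3 ± 3.85 CPM per kb in TC Tfh, 95.1 ± 3.91 in TC Tn, 73.5 ± 1.39 in B6 Tfh and 84.7 ± 5.49 in B6 Tn. Neighbours in the order whose library ranges overlapped were Jak2 and Stat6 in Tfh of either strain, Jak3 and Jak2 in B6 Tfh, Stat4 and Tyk2 in TC Tfh and in B6 Tn, Stat5b and Jak3 in B6 Tn, and Stat4 and Stat5a in TC Tn. Dividing by the longest transcript instead of the summed exons kept Jak3 first in TC Tfh (234 CPM per kb, with Jak1 at 197) and Jak1 first in the other groups, but put Stat4 last in Tn of both strains.

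**Figure D1:**
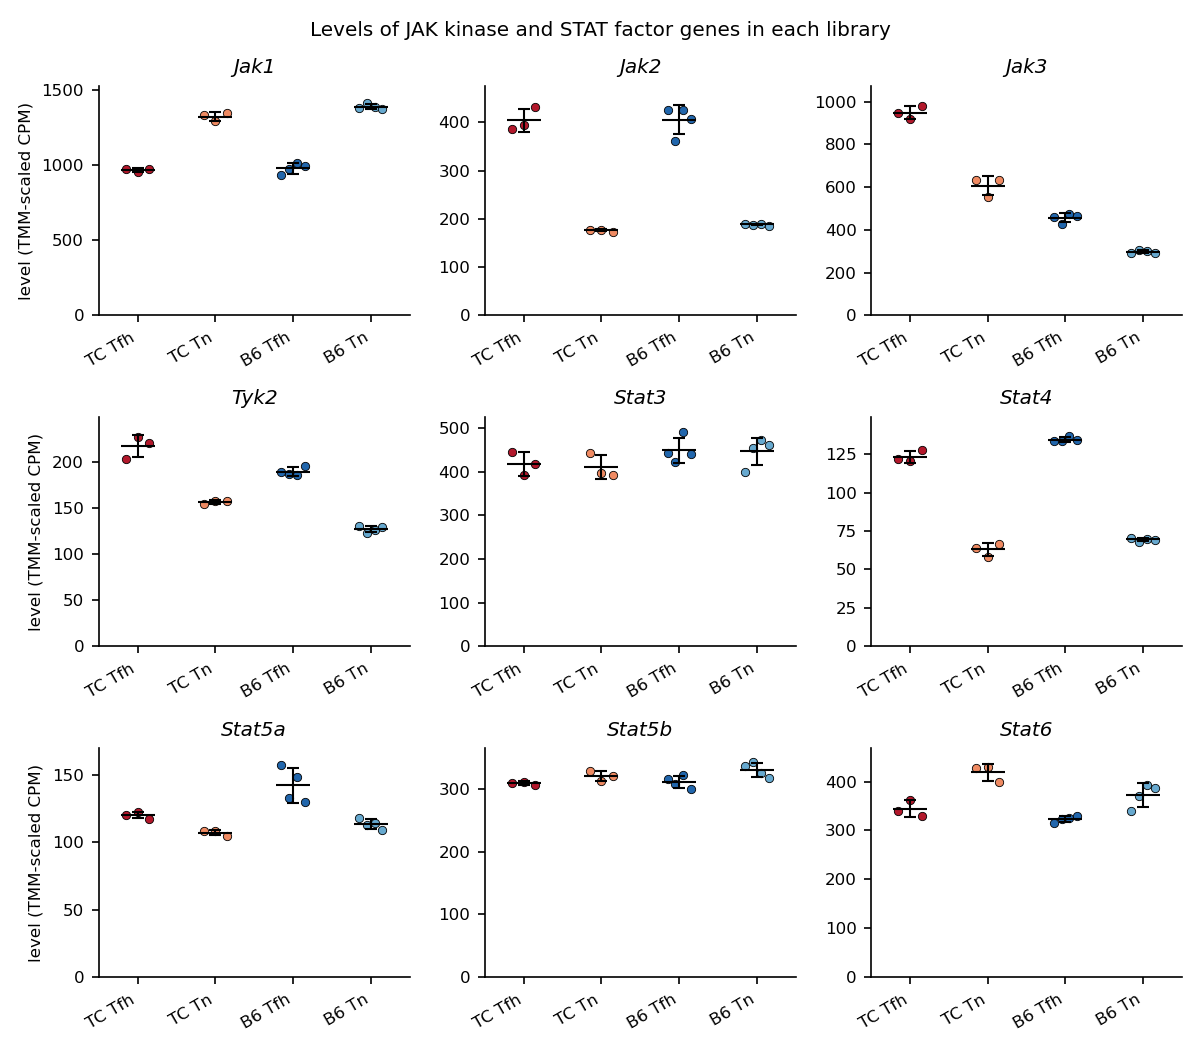
Level of each gene in each of the 14 libraries, in TMM-scaled CPM on linear axes from 0; points are libraries, bars are group means ± SD (n = 3 TC and 4 B6 libraries). Jak3 is the gene whose strain groups lie farthest apart (947 CPM in TC Tfh against 456 CPM in B6 Tfh, 606 CPM in TC Tn against 298 CPM in B6 Tn), while Jak2 and Stat4 separate by cell type.

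The first question was how Tfh differ from naive cells. In TC, 5 of the 9 genes rose in Tfh (Jak2, Jak3, Tyk2, Stat4 and Stat5a), 2 fell (Jak1 and Stat6) and 2 did not pass the test (Stat3 and Stat5b). The same division was found in B6. Calls rest on edgeR's quasi-likelihood test with Benjamini-Hochberg adjustment over all genes and a threshold of 0.05. Of all genes tested 66.1% were called in TC (33.7% higher and 32.4% lower in Tfh) and 70.3% in B6 (36.9% higher and 33.3% lower), so 7 of 9 is close to the share among all genes. Tfh and Tn libraries did not overlap in CPM for 8 of the 9 genes in TC, where 71.3% of all genes did not, and for 7 of the 9 in B6, where 63.9% did not. The median log2 fold change was 0.17 over the 9 genes and -0.01 over all genes in TC, and 0.32 over the 9 and 0.02 over all in B6. In sorted bulk RNA, fewer cells of a type and less RNA per cell cannot be told apart, here and below.

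Jak1, the kinase shared by the common gamma chain, interleukin-6 and interferon receptors, was the only JAK gene that fell in Tfh. It had 976, 952 and 977 CPM in the 3 TC Tfh libraries against 1330.3, 1289.9 and 1348 CPM in TC Tn, and 931, 974, 1014 and 995 CPM in the 4 B6 Tfh libraries against 1382, 1415, 1383 and 1373 CPM in B6 Tn. Every Tfh library lay below every Tn library. The fall was 1.37-fold in TC (log2 fold change -0.45 ± 0.05 SE, adjusted p = 8.05e-07) and 1.42-fold in B6 (-0.50 ± 0.05, adjusted p = 2.12e-08).

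Jak2, which acts at the interleukin-12 and interferon-gamma receptors, rose most of the 9 genes. It had 387, 395 and 432 CPM in TC Tfh against 178, 176 and 174 CPM in TC Tn, and 426, 362, 425 and 408 CPM in B6 Tfh against 189, 188, 189.6 and 186 CPM in B6 Tn. The lowest Tfh library, B6 mouse 2, was still far above the highest Tn library. The rise was 2.30-fold in TC (log2 1.202 ± 0.06, adjusted p = 1.11e-11) and 2.15-fold in B6 (1.11 ± 0.05, adjusted p = 2.92e-12).

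Jak3, the kinase bound to the common gamma chain, also rose. It had 946, 917 and 978 CPM in TC Tfh against 631, 554 and 633 CPM in TC Tn, and 459, 427, 476 and 465 CPM in B6 Tfh against 289.7, 306, 301 and 294 CPM in B6 Tn. Tfh and Tn libraries did not overlap within a strain, but all 3 TC Tn libraries exceeded all 4 B6 Tfh libraries. The rise in Tfh was 1.56-fold in TC (log2 0.64 ± 0.06, adjusted p = 4.77e-08) and 1.53-fold in B6 (0.62 ± 0.05, adjusted p = 9.75e-09). With offsets for transcript length and G and C content it was smaller, at log2 0.39 in TC and 0.31 in B6, and was still called in both.

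Tyk2, the partner of JAK2 at the interleukin-12 receptor, had 204, 228 and 221 CPM in TC Tfh against 155, 158 and 158 CPM in TC Tn, and 189.9, 188, 186 and 196 CPM in B6 Tfh against 131, 123, 126 and 129.8 CPM in B6 Tn. Again the cell types did not overlap within a strain. The rise was 1.39-fold in TC (log2 0.47 ± 0.05, adjusted p = 1.57e-07) and 1.49-fold in B6 (0.57 ± 0.04, adjusted p = 1.21e-09).

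Among the STAT genes, Stat4, whose protein carries interleukin-12 signals, showed the largest rise. It had 122, 121 and 128 CPM in TC Tfh against 64.1, 58.4 and 66.8 CPM in TC Tn, and 133, 133, 137 and 134 CPM in B6 Tfh against 70.6, 68.1, 69.8 and 69.4 CPM in B6 Tn. No Tn library reached the Tfh range. The rise was 1.95-fold in TC (log2 0.97 ± 0.05, adjusted p = 1.46e-11) and 1.93-fold in B6 (0.95 ± 0.04, adjusted p = 1.40e-12).

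Stat5a and Stat5b encode closely related factors of interleukin-2 and interleukin-7 signalling and did not follow the same course. Stat5a had 121, 122 and 118 CPM in TC Tfh against 108, 108 and 105 CPM in TC Tn, and 158, 133, 148 and 129.8 CPM in B6 Tfh against 118, 113, 115 and 109 CPM in B6 Tn. Its Tfh and Tn ranges were separate in both strains, with a wider spread in B6 Tfh than elsewhere. The rise was 1.12-fold in TC (log2 0.17 ± 0.06, adjusted p = 0.0288) and 1.25-fold in B6 (0.32 ± 0.05, adjusted p = 3.67e-05). The TC call ended with offsets for length and G and C content (log2 0.02, adjusted p = 0.802), with no filter on low counts (0.12, adjusted p = 0.140) and on leaving out TC Tn replicate 1, 2 or 4 (adjusted p = 0.0551, 0.0531 and 0.0877).

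Stat5b had 309, 311 and 306 CPM in TC Tfh against 327, 312 and 320.4 CPM in TC Tn, and 316, 307, 321 and 299.6 CPM in B6 Tfh against 336, 342, 325 and 316 CPM in B6 Tn. In TC every Tfh library lay just below every Tn library, and in B6 the ranges overlapped. The log2 difference was -0.05 in TC (95% interval -0.15 to 0.05) and -0.09 in B6 (-0.17 to 0.00), and neither was called. With length and G and C offsets Stat5b was called lower in B6 Tfh (log2 -0.13, adjusted p = 0.00685), and with the mouse as a replicate block added it was called lower in TC Tfh as well (-0.10, adjusted p = 0.0449). On unscaled library totals the sign of Stat5b turned, to 0.06 in TC and 0.05 in B6, because that scale moves every Tfh to Tn difference up by 0.11 in TC and 0.13 in B6. Stat5a and Stat5b share 608 identical stretches of 50 bases, 8.21% of those in Stat5a exons and 11% of those in Stat5b exons, so how reads were divided between them is uncertain. No other pair among the 9 genes shares such a stretch when each gene is read on its own strand. Stat3 and Stat5a overlap by 72 bases on opposite strands. The strand setting of the counts was not given, so how reads from that overlap were divided is uncertain too.

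Stat3, the factor of interleukin-6 and interleukin-21 signalling, had 445, 391 and 416 CPM in TC Tfh against 443, 398 and 392 CPM in TC Tn, and 442, 423, 490.0 and 441 CPM in B6 Tfh against 400.1, 454, 472 and 459.8 CPM in B6 Tn. The ranges overlapped in both strains. The log2 difference was 0.02 in TC (95% interval -0.13 to 0.18) and 0.01 in B6 (-0.13 to 0.14), and neither was called. These intervals leave room for changes in either direction, but not for one of the size seen for Stat4.

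Stat6, the factor of interleukin-4 signalling, had 340.2, 363 and 330.1 CPM in TC Tfh against 428, 429 and 399 CPM in TC Tn, and 315, 323, 326 and 329.5 CPM in B6 Tfh against 339, 371, 394 and 387 CPM in B6 Tn. All Tfh libraries lay below all Tn libraries of the same strain. The fall was 1.22-fold in TC (log2 -0.28 ± 0.06, adjusted p = 0.000495) and 1.15-fold in B6 (-0.21 ± 0.05, adjusted p = 0.00193). On unscaled totals the B6 ranges of Stat6 overlapped, with a log2 ratio of -0.07.

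Summed markers of regulatory T cells and of B cells were higher in Tfh. Summed myeloid markers were lower in TC Tfh than in TC Tn, and their ranges overlapped in B6. All 5 regulatory T cell markers were detected in every group, and their summed level was 1929 to 2474 CPM in TC Tfh against 116 to 155 CPM in TC Tn, and 1509 to 1794 CPM in B6 Tfh against 153 to 201 CPM in B6 Tn. Of 10 B cell markers, 3 averaged at least 1 CPM in Tfh of each strain, and the sum was 71.4 to 99.6 CPM in TC Tfh against 1.27 to 2.28 CPM in TC Tn, and 106 to 117 CPM in B6 Tfh against 1.40 to 2.68 CPM in B6 Tn. Most of the B cell sum in Tfh was Cd22, with means of 58.4 CPM in TC Tfh and 92.1 CPM in B6 Tfh. The B cell marker Fcer2a was at 0 in all TC libraries. The part of all these markers in the differences of the JAK and STAT genes was not tested.

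**Figure D2:**
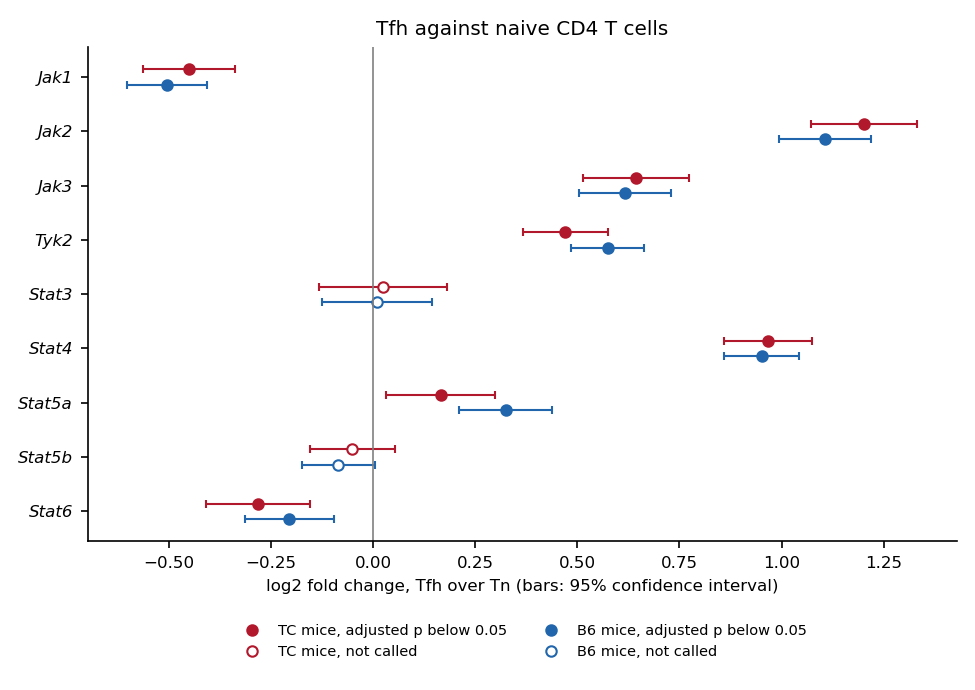
Log2 fold change of Tfh over Tn for each gene in TC mice (red) and B6 mice (blue), with 95% confidence intervals; filled points passed an adjusted p of 0.05. Jak2 and Stat4 lie near 1 in both strains, Jak1 and Stat6 lie below 0, and the intervals of Stat3 span 0.

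The second question was how the lupus-prone strain differs from B6. In Tfh, 2 of the 9 genes were higher in TC (Jak3 and Tyk2), 2 were lower (Stat4 and Stat5a) and 5 did not pass the test, where 49.7% of all genes tested were called (24.2% higher and 25.5% lower). In Tn, 3 were higher in TC (Jak3, Tyk2 and Stat6), 1 was lower (Stat4) and 5 did not pass, where 52% of all genes were called (25.9% higher and 26.1% lower). TC and B6 libraries did not overlap for 5 of the 9 genes in Tfh (50.2% of all genes) and for 7 of the 9 in Tn (55.5% of all genes). The number of calls is again close to that among all genes. Of 13427 genes Jak3 ranked 26 by p in Tfh and 38 in Tn, but by log2 fold change it ranked 635 from the top in Tfh and 975 in Tn.

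From the values already given, every TC library had more Jak3 than every B6 library of the same cell type. Mean levels were 947 ± 30.2 CPM in TC Tfh and 456 ± 21.2 CPM in B6 Tfh, and 606 ± 45.1 CPM in TC Tn and 298 ± 7.37 CPM in B6 Tn (SD, n = 3 TC and 4 B6). Jak3 was 2.07-fold higher in TC Tfh (log2 1.05 ± 0.06, adjusted p = 3.99e-10) and 2.04-fold higher in TC Tn (1.03 ± 0.06, adjusted p = 4.51e-10). Over all alternatives tried the log2 value lay between 0.96 and 1.09 in Tfh and between 0.88 and 1.09 in Tn, and the call never ended.

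No other JAK gene differed by as much. Tyk2 averaged 218 ± 12.2 CPM in TC Tfh and 189.9 ± 4.45 CPM in B6 Tfh, and 157 ± 1.98 CPM in TC Tn and 128 ± 3.62 CPM in B6 Tn, with no overlap in either cell type. It was 1.15-fold higher in TC Tfh (log2 0.20 ± 0.05, adjusted p = 0.00183) and 1.23-fold higher in TC Tn (0.30 ± 0.05, adjusted p = 3.85e-05). Offsets for length and G and C content ended the call in Tfh (log2 0.09, adjusted p = 0.120) and lowered the value in Tn to 0.16, which was still called.

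Jak1 and Jak2 did not pass the test between strains. The log2 difference of Jak1 was -0.02 in Tfh (95% interval -0.12 to 0.09) and -0.07 in Tn (-0.18 to 0.04), and that of Jak2 was 0.00 in Tfh (-0.12 to 0.12) and -0.10 in Tn (-0.22 to 0.02). In Tn every TC library lay below every B6 library for both genes. Each interval excludes a difference of the size of Jak3. With DESeq2 instead of edgeR, Jak1 passed in Tn (log2 -0.08, adjusted p = 0.0402).

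Of the STAT genes, Stat5a was lower in TC Tfh, with 120.2 ± 2.45 CPM in TC Tfh and 142 ± 13.1 CPM in B6 Tfh, and no overlap. The fall was 1.18-fold (log2 -0.24 ± 0.06, adjusted p = 0.00257). In Tn it averaged 107 ± 1.89 CPM in TC and 114 ± 3.58 CPM in B6 and was not called (log2 -0.08, 95% interval -0.21 to 0.04). The offsets for length and G and C content moved both values, to -0.37 in Tfh and -0.25 in Tn, and the Tn value was then called (adjusted p = 0.0012).

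Stat4 was lower in TC by a small margin, with 123 ± 3.83 CPM in TC Tfh and 134 ± 1.64 CPM in B6 Tfh, and 63.1 ± 4.29 CPM in TC Tn and 69.5 ± 1.03 CPM in B6 Tn. The difference was 1.09-fold in Tfh (log2 -0.12 ± 0.05, adjusted p = 0.0336) and 1.10-fold in Tn (-0.14 ± 0.05, adjusted p = 0.0225). In Tfh the call ended on leaving out any 1 of the 4 B6 Tfh libraries or TC Tfh replicate 1 or 2 (adjusted p = 0.0635 to 0.189), and in Tn on leaving out TC Tn replicate 2 (adjusted p = 0.161). Both ended with a count minimum of 50, with only the groups compared in the fit and with offsets for length and G and C content, and the Tn call also with no filter.

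Stat6 was 1.12-fold higher in TC Tn (log2 0.17 ± 0.06, adjusted p = 0.0186), with 419 ± 17.2 CPM in TC Tn and 373 ± 24.2 CPM in B6 Tn. This call ended on leaving out B6 Tn replicate 1, TC Tn replicate 1 or TC Tn replicate 2 (adjusted p = 0.0641, 0.0736 and 0.0797). In Tfh it averaged 344 ± 16.9 CPM in TC and 323 ± 6.12 CPM in B6 and was not called (log2 0.09, 95% interval -0.03 to 0.21). Stat3 and Stat5b were called in neither cell type. For Stat3 the log2 difference was -0.11 in Tfh (-0.25 to 0.04) and -0.12 in Tn (-0.27 to 0.03), and with length and G and C offsets it was -0.20 and -0.19 and was called in both (adjusted p = 0.0195 in Tfh and 0.0228 in Tn). For Stat5b it was -0.01 in Tfh (-0.11 to 0.09) and -0.04 in Tn (-0.14 to 0.05).

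Among Tfh the sum of the 5 regulatory T cell markers was also higher in TC. It was 1929 to 2474 CPM in TC Tfh against 1509 to 1794 CPM in B6 Tfh. Its highest member, Ikzf2, averaged 1082 CPM in TC Tfh and 783 CPM in B6 Tfh. Foxp3 differed little, with 323 ± 67.1 CPM in TC Tfh and 311 ± 36.9 CPM in B6 Tfh. In Tn the ranges of the sum overlapped, at 116 to 155 CPM in TC against 153 to 201 CPM in B6. The B cell marker sum was lower in TC Tfh, at 71.4 to 99.6 CPM against 106 to 117 CPM in B6 Tfh. Most of that sum was the single gene Cd22, with means of 58.4 CPM in TC Tfh and 92.1 CPM in B6 Tfh. The share of ribosomal protein counts was lower in TC in both cell types. Whether any of these bears on the strain differences was not tested.

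**Figure D3:**
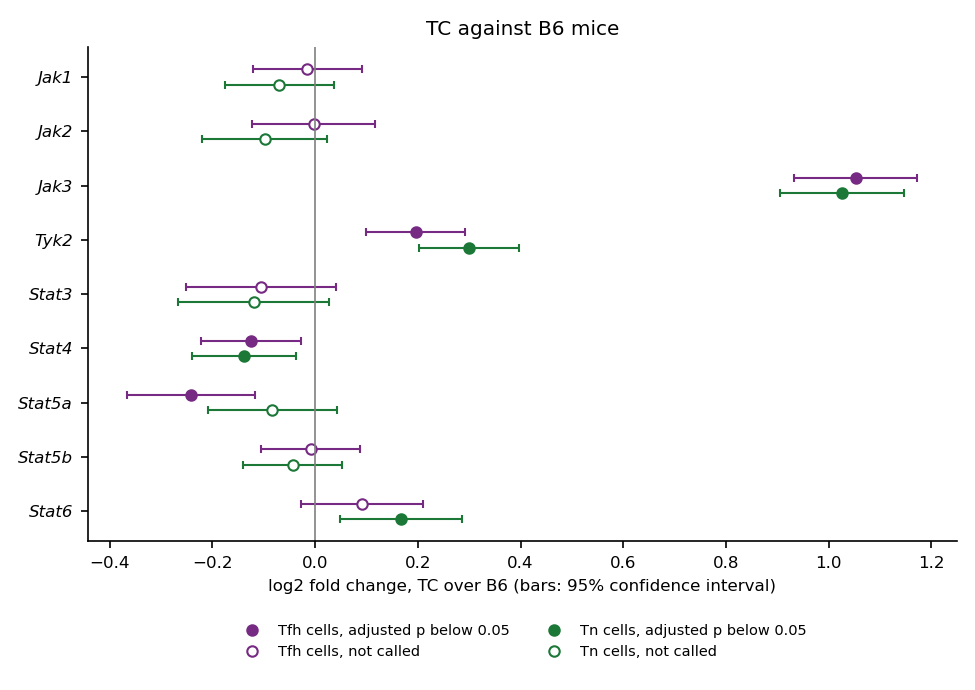
Log2 fold change of TC over B6 for each gene in Tfh (purple) and Tn (green), with 95% confidence intervals; filled points passed an adjusted p of 0.05. Jak3 lies at 1.05 in Tfh and 1.03 in Tn, and all other points lie between -0.24 and 0.30.

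The third question was whether the difference between Tfh and Tn depends on the strain. The interaction of strain and cell type was called for 0 of the 9 genes, with 0 at an unadjusted p below 0.05 and 0 in DESeq2, where 2.32% of all genes tested (312) were called. With the mouse as a replicate block, which pairs the Tfh and Tn of an animal, 736 of 13427 genes were called and 0 of the 9. In both fits 0 of 9 is close to the low share among all genes. Positive values mean a larger Tfh to Tn ratio in TC. For Jak3 the interaction was log2 0.03 (95% interval -0.14 to 0.20), so at this precision its strain difference in Tfh and in Tn could not be told apart. The value farthest from 0 was that of Stat5a, at -0.16 (-0.33 to 0.02), and the widest interval was that of Stat3, at 0.01 (-0.19 to 0.22). The same 4 groups enter all of these comparisons, so the cell type and strain contrasts share libraries and are not independent of each other.

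Shares of the summed CPM per kb describe how the make-up of the family differed. Of the 4 JAK genes together, Jak3 made up 41.8 ± 0.46% in TC Tfh, 31.9 ± 1.31% in TC Tn, 25.9 ± 0.36% in B6 Tfh and 18.3 ± 0.29% in B6 Tn (SD over libraries). Jak1 made up 31.7 ± 0.64% in TC Tfh, 51.7 ± 0.69% in TC Tn, 41.2 ± 1.45% in B6 Tfh and 63.2 ± 0.19% in B6 Tn. None of these ranges overlapped between groups. Jak2 made up 19.0 ± 0.65% in TC Tfh and 9.88 ± 0.40% in TC Tn, and 24.5 ± 1.24% in B6 Tfh and 12.3 ± 0.15% in B6 Tn. In Tfh it took a smaller share in TC although its mean level was 405 CPM in both TC Tfh and B6 Tfh. Because shares add up to a whole, a higher Jak3 lowers the others by construction.

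In the STAT genes the shares moved less. Stat4 made up 14.1 ± 0.61% in TC Tfh and 7.18 ± 0.56% in TC Tn, and 15.01 ± 0.24% in B6 Tfh and 7.99 ± 0.35% in B6 Tn. Stat6 made up 34.5 ± 1.43% in TC Tfh and 41.8 ± 1.195% in TC Tn, and 31.8 ± 1.01% in B6 Tfh and 37.6 ± 1.34% in B6 Tn. The ratio of Stat4 to Stat6 counts was 0.359 ± 0.027 in TC Tfh and 0.151 ± 0.016 in TC Tn, and 0.416 ± 0.007 in B6 Tfh and 0.187 ± 0.014 in B6 Tn. Summed over the 5 STAT genes the level overlapped between all groups, at 227 ± 2.72 CPM per kb in TC Tfh, 227 ± 6.58 in TC Tn, 231 ± 5.88 in B6 Tfh and 225 ± 7.37 in B6 Tn. The JAK sum was 423 ± 11.3 CPM per kb in TC Tfh, 354 ± 12.2 in TC Tn, 329 ± 11.6 in B6 Tfh and 304 ± 3.37 in B6 Tn.

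**Figure D4:**
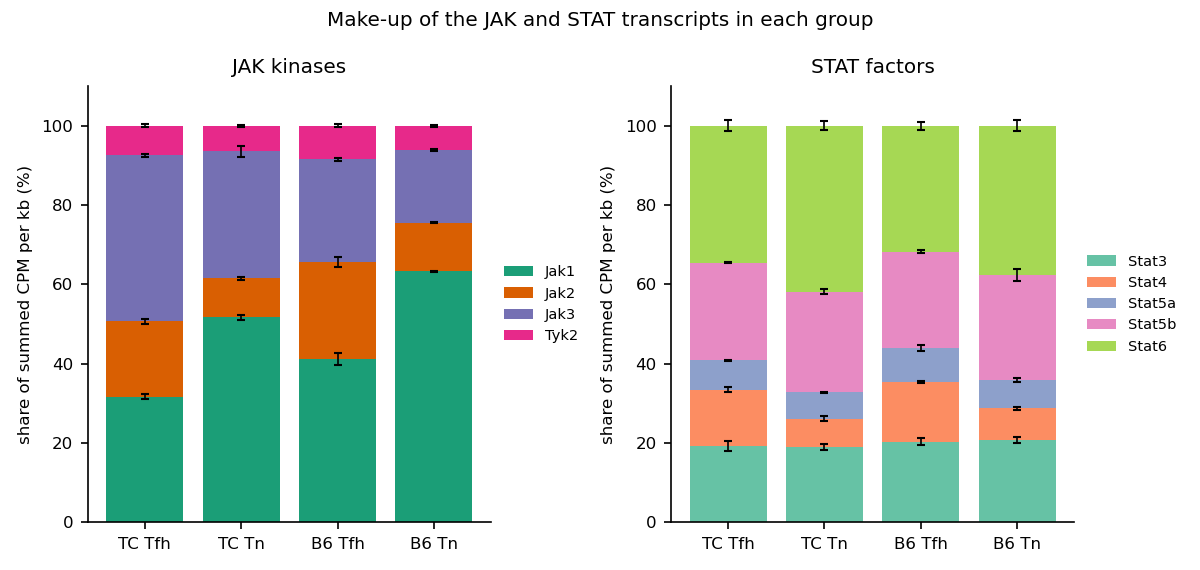
Share of each gene in the summed CPM per kb of the 4 JAK genes (left) and the 5 STAT genes (right) in each group, in percent; bars are means over libraries and error bars the SD of the segment they top (n = 3 TC and 4 B6 libraries). Jak3 takes 41.8% of the JAK sum in TC Tfh and 18.3% in B6 Tn.

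Because Jak3 differed so clearly by strain, its surroundings in the genome were examined; this was decided after its values were seen. In mm10 (GENCODE M21) Jak3 lies on chromosome 8, from 71676296 to 71690575 on the plus strand, whereas Sle1, Sle2 and Sle3 lie on chromosomes 1, 4 and 7. Of the other genes 2 share a chromosome with an interval, Jak1 with Sle2 on chromosome 4 and Stat4 with Sle1 on chromosome 1. The limits of the intervals were not used here. The remaining genes are on chromosomes 19 (Jak2), 9 (Tyk2), 11 (Stat3, Stat5a and Stat5b) and 10 (Stat6).

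Of 30 tested genes that start within 500 kb of Jak3, 7 were higher and 13 lower in TC Tfh, and 9 were higher and 11 lower in TC Tn. Over all genes tested 49.7% were called in Tfh and 52% in Tn. Windows of the same size around the other genes also held called genes. In Tfh 3 were higher and 1 lower of 6 around Jak1, and 3 and 5 of 12 around Jak2. Around Tyk2 it was 5 and 13 of 34, around Stat3 6 and 6 of 34, and around Stat4 1 and 1 of 3. It was 5 and 5 of 32 for Stat5a, 7 and 6 of 34 for Stat5b and 7 and 4 of 24 for Stat6. Near Jak1, Raver2 averaged 1.53 CPM in TC Tn and 22.8 CPM in B6 Tn. Cyp4f18, which encodes a fatty acid hydroxylase and starts 333 kb downstream, averaged 48.9 ± 32.7 CPM in TC Tfh and 0.12 ± 0.08 CPM in B6 Tfh, and 18.4 ± 6.41 CPM in TC Tn and 0.04 ± 0.05 CPM in B6 Tn. Tmem221, at -117 kb, went the other way, with 0.10 ± 0.12 CPM in TC Tfh and 1.89 ± 0.56 CPM in B6 Tfh, and 0.14 ± 0.08 CPM in TC Tn and 6.13 ± 0.75 CPM in B6 Tn. Fam129c, at -78.6 kb, was 2.67-fold higher in TC Tfh and 4.62-fold higher in TC Tn.

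The nearest start belongs to Unc13a, 4.54 kb upstream on the other strand, which was not called in either cell type (log2 0.03 in Tfh, -0.35 in Tn). Insl3 overlaps Jak3 by 1362 bases on the same strand and was higher in TC as well (log2 0.87 in Tfh and 0.78 in Tn), but held at most 240 counts in any library. How reads from the overlap were divided is uncertain. Among the 698 tested genes of chromosome 8, 52% were called between strains in Tfh and 51.7% in Tn, and Jak3 ranked 27 by log2 fold change in Tfh and 47 in Tn. By p it ranked 6 in Tfh and 8 in Tn.

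**Figure D5:**
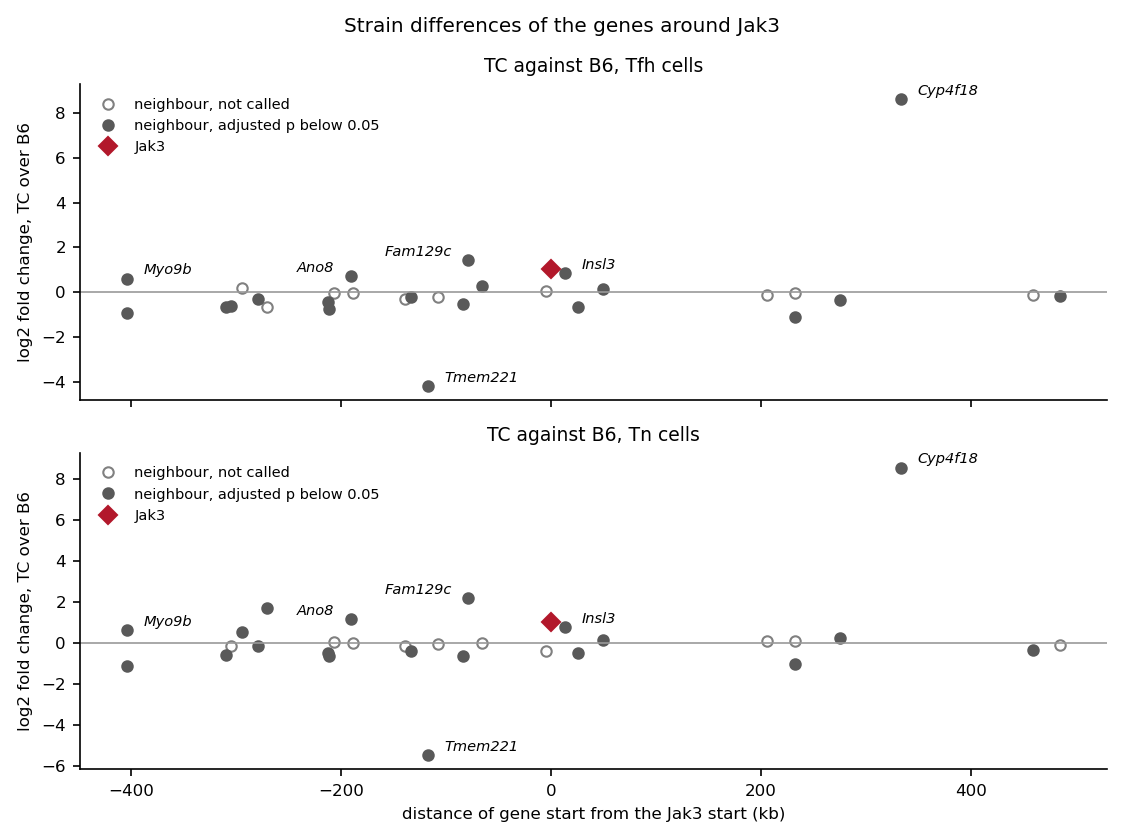
Log2 fold change of TC over B6 for the genes that start within 500 kb of Jak3, by distance of their start from that of Jak3 in kb, in Tfh (top) and Tn (bottom); filled circles passed an adjusted p of 0.05. Jak3 (diamond) lies near 1 in both panels, between neighbours that are higher, such as Fam129c and Cyp4f18, and lower, such as Tmem221.

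For the pathway lists that follow, called counts are to be read against all genes tested, of which 66.1% were called between Tfh and Tn in TC and 70.3% in B6, with medians of log2 -0.01 and 0.02, and 49.7% between TC and B6 in Tfh and 52% in Tn, with medians of -0.02 and -0.01. Of 8 chains of common gamma chain receptors, 4 rose and 3 fell in TC Tfh, and 4 rose and 4 fell in B6 Tfh, with list medians of log2 0.73 in TC and 0.58 in B6. Il2rb, the beta chain of the interleukin-2 and interleukin-15 receptors, had 740.1 ± 50.2 CPM in TC Tfh and 40.9 ± 4.32 CPM in TC Tn, and 884 ± 38.0 CPM in B6 Tfh and 72.0 ± 13.6 CPM in B6 Tn, a rise of log2 4.18 in TC and 3.62 in B6. Il4ra, the interleukin-4 receptor alpha chain, fell in Tfh, with 73.7 ± 9.11 CPM in TC Tfh and 377 ± 19.6 CPM in TC Tn, and 84.9 ± 7.93 CPM in B6 Tfh and 452 ± 9.25 CPM in B6 Tn. The fall of Il4ra was log2 -2.36 in TC and -2.41 in B6. Il15ra rose by log2 1.58 in TC and 1.35 in B6.

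Il2rg, which encodes the common gamma chain that JAK3 binds, was lower in TC, with 266 ± 17.4 CPM in TC Tfh and 332 ± 21.5 CPM in B6 Tfh, and 395 ± 5.99 CPM in TC Tn and 467 ± 25.9 CPM in B6 Tn. The log2 fold change was -0.32 in Tfh (adjusted p = 0.000408) and -0.24 in Tn (adjusted p = 0.00292), opposite in direction to Jak3. The ratio of Jak3 to Il2rg counts was 3.57 ± 0.33 in TC Tfh and 1.38 ± 0.14 in B6 Tfh, and 1.53 ± 0.09 in TC Tn and 0.639 ± 0.047 in B6 Tn. Between strains 1 of the 8 chains was higher and 3 lower in TC Tfh, and 1 was higher and 4 lower in TC Tn. Il15ra was the one that was higher in TC Tfh (log2 0.56), and in TC Tn Il2rb was lower (-0.81).

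Of the receptors of the interleukin-6, interleukin-12 and interleukin-10 families, 8 of 10 were tested, and Il23r and Lifr were not. In TC Tfh 6 rose and 1 fell, and in B6 Tfh 5 rose and 1 fell, with medians of log2 1.29 in TC and 0.94 in B6. Il12rb1, the interleukin-12 receptor chain that binds TYK2, had 38.3 ± 2.67 CPM in TC Tfh and 3.04 ± 0.95 CPM in TC Tn, and 51.1 ± 2.04 CPM in B6 Tfh and 5.98 ± 0.78 CPM in B6 Tn. Il10ra rose by log2 2.18 in TC and 1.80 in B6, and Il6ra fell by 0.63 in TC and 0.77 in B6 on the log2 scale. Between strains Il12rb1 was lower in TC (log2 -0.42 in Tfh and -0.96 in Tn), among 2 lower and 1 higher in TC Tfh and 3 lower in TC Tn.

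Of the 4 interferon receptor genes 1 rose and 3 fell in Tfh of each strain. Ifngr2, the interferon-gamma receptor chain that JAK2 binds, had 13.2 ± 0.87 CPM in TC Tfh and 74.4 ± 2.53 CPM in TC Tn, and 11.02 ± 1.31 CPM in B6 Tfh and 73.2 ± 5.80 CPM in B6 Tn. Jak2 and Ifngr2 thus moved in opposite directions between the cell types. Ifnar2 rose by log2 0.44 in TC and 0.52 in B6, and Ifnar1 fell by 0.44 in TC and 0.56 in B6. Between strains 1 was higher and 1 lower in TC Tfh, and 2 were lower in TC Tn. Of the 11 other JAK-coupled receptor genes only 5 were tested, of which 4 rose and 1 fell in Tfh of each strain, among them Il3ra (log2 1.76 in TC and 1.44 in B6).

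Irf9, which encodes a DNA-binding subunit of the complex that interferon receptors activate, fell in Tfh of both strains, with 118 ± 3.95 CPM in TC Tfh and 173 ± 10.98 CPM in TC Tn, and 141 ± 8.64 CPM in B6 Tfh and 182 ± 6.22 CPM in B6 Tn. The fall was log2 -0.56 in TC and -0.37 in B6. Irf9 was also lower in TC Tfh than in B6 Tfh (log2 -0.26).

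Of the inhibitors, 5 of 8 SOCS genes rose and 2 fell in TC Tfh, where 66.1% of all genes were called, and 5 rose and 1 fell in B6 Tfh, where 70.3% were. The list medians were log2 0.42 in TC and 0.25 in B6. SOCS proteins block receptors and JAKs and mark them for degradation. Socs5 had 51.4 ± 3.24 CPM in TC Tfh and 19.5 ± 1.87 CPM in TC Tn, and 60.1 ± 7.76 CPM in B6 Tfh and 21.6 ± 0.41 CPM in B6 Tn. Socs2 rose by log2 3.12 in TC and 2.25 in B6 and was lower in TC in both cell types (-0.66 in Tfh, -1.53 in Tn). Its levels were low, at 5.10 ± 0.93 CPM in TC Tfh and 0.59 ± 0.27 CPM in TC Tn. In B6 they were 8.08 ± 1.33 CPM in Tfh and 1.70 ± 0.71 CPM in Tn. Socs3 fell in B6 Tfh, with 112 ± 6.76 CPM in B6 Tfh and 262 ± 17.5 CPM in B6 Tn. The interaction was called for 0 of the 8 SOCS genes, so a fall particular to B6 was not shown. Between strains 1 SOCS gene was higher and 2 lower in TC Tfh, and 2 were higher and 2 lower in TC Tn.

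Among the 4 PIAS genes, whose proteins bind STATs in the nucleus, 1 rose and 2 fell in Tfh of each strain. Pias3, named for its inhibition of STAT3, had 65.6 ± 0.75 CPM in TC Tfh and 23.6 ± 1.35 CPM in TC Tn, and 53.8 ± 2.58 CPM in B6 Tfh and 18.0 ± 1.22 CPM in B6 Tn. It was higher in TC in both cell types (log2 0.29 in Tfh and 0.39 in Tn), as was Pias4 (0.13 and 0.25), the other 2 being called in neither. Of 11 phosphatase and adaptor genes 6 rose and 3 fell in Tfh of each strain. Ptpn11, which encodes the phosphatase SHP2, rose most in fold of the named ones, with 740.5 ± 68.5 CPM in TC Tfh and 121 ± 2.53 CPM in TC Tn, and 792 ± 100.2 CPM in B6 Tfh and 134 ± 6.61 CPM in B6 Tn. Sh2b1, an adaptor that binds JAK2, was higher in TC in both cell types and more so in Tn (log2 0.27 in Tfh and 0.64 in Tn, interaction -0.37, adjusted p = 0.0473).

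Genes described as STAT targets were counted by factor, without regard to whether these factors act on them here, and again 66.1% of all genes were called in TC and 70.3% in B6. Of 10 tested STAT3 targets 7 rose and 1 fell in Tfh of each strain, Rora and Batf among those that rose. Of 6 STAT4 targets 5 rose in TC Tfh, and 5 rose and 1 fell in B6 Tfh, with Tbx21 at 20.8 ± 4.29 CPM in TC Tfh and 0.46 ± 0.24 CPM in TC Tn, and 29.3 ± 2.27 CPM in B6 Tfh and 0.34 ± 0.06 CPM in B6 Tn. Of 13 STAT5 targets 9 rose and 3 fell in TC Tfh, and 9 rose and 4 fell in B6 Tfh. The medians were log2 1.98 in TC and 1.54 in B6 for the STAT3 targets and 0.84 in TC and 0.59 in B6 for the STAT5 targets. Of 4 STAT6 targets 3 rose and 1 fell in each strain, Nfil3 rising by log2 5.39 in TC and 5.36 in B6 while Il4ra fell. Of these genes Il21 and Bcl6 are also on the list of Tfh markers, and Foxp3 and Il2ra on that of regulatory T cell markers, so the counts are no readout of STAT activity.

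Between strains the STAT3 target Junb, an AP-1 factor, was higher in TC, by log2 1.89 in Tfh and 2.72 in Tn, with 909 ± 276 CPM in TC Tfh and 246 ± 23.6 CPM in B6 Tfh, and 928 ± 348 CPM in TC Tn and 141 ± 11.2 CPM in B6 Tn. In TC Tfh 5 STAT3 targets were higher and 1 lower, and in TC Tn 3 were higher and 1 lower. Of the STAT5 targets 2 were higher and 2 lower in TC Tfh, and 1 was higher and 6 lower in TC Tn. Bcl2, which protects cells from death, was among those lower in TC Tn (177 ± 12.5 CPM in TC Tn and 335 ± 35.8 CPM in B6 Tn), and its interaction was called (log2 0.99, adjusted p = 0.00374). Of the STAT4 targets 1 was higher and 1 lower in TC in each cell type, and of the STAT6 targets 2 were higher and 1 lower in TC Tfh and 1 was higher and 1 lower in TC Tn.

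Finally, the genes whose pattern was most like each member were found by Pearson's r of log2 CPM over the 14 libraries, among 9793 genes averaging at least 5 CPM. These values describe how groups and libraries line up, since the libraries fall into 4 groups and carry no test. For Jak3 they were Mtx3 (r = 0.985) and Crocc (0.982), and for Tyk2 Plxna3 (0.990) and Ccdc125 (0.989). Genes that mainly separate the cell types had near neighbours, Ptpn11 (0.997) and Cbx6 (0.997) for Jak2, Prelid2 (0.996) for Stat4, and Lef1 and Smchd1 (0.994 each) for Jak1. For Stat6 they were Srsf2 (0.981) and Dbf4 (0.975), and for Stat5a Slc25a1 and Cpne3 (0.940 each).

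Stat5b and Stat3, which separated the groups least, had lower best values, with Ing5 (0.894) and Gstcd (0.890) for Stat5b and Bbc3 (0.818) and Pramef8 (0.780) for Stat3. Over deviations from group means, which leave only differences between mice and libraries, the closest genes were Pcsk1 for Jak1 (r = 0.872), Hdac4 for Jak2 (0.908), Ptpn13 for Jak3 (0.895), Dzip1 for Tyk2 (0.927), Etv6 for Stat3 (0.943), Oxr1 for Stat4 (0.928), Trav14-1 for Stat5a (0.952), Trim23 for Stat5b (0.913) and Nop56 for Stat6 (0.927). None of these is among the 9 genes. Each was picked as the highest of 9793 genes over 14 libraries, so picking alone can give a high r, and no link was tested. Within the family, the highest value over deviations was that of Jak3 and Stat4 (0.732) and the lowest that of Tyk2 and Stat3 (-0.652).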

How the data were processed

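RNA was sequenced from sorted Tfh and Tn of 3 TC and 4 B6 mice. The deposited table gives raw counts per gene symbol for 14 libraries, and the number of unused sample columns is 0. The submitters' processing notes name STAR 2.7, mm10 and DESeq2; the counter, strand setting and annotation were not given in the sources used here. Groups were taken from the titles.

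The 9 genes, the gene lists and the markers were chosen with earlier results of these data known. Counts were tested with edgeR 4.0.16 (quasi-likelihood, robust, TMM factors, R 4.3.3) after filterByExpr with a minimum count of 10, leaving 13427 of 26683 symbols. A single model with 4 group means gave all contrasts, and adjusted p-values are Benjamini-Hochberg over all genes tested. Errors on log2 fold changes are SE, and those on levels are SD. Named genes were the 9 members, up to 3 genes per list and comparison with the smallest adjusted p below 0.05 and groups that did not overlap, and the genes with the highest r; some results under this rule are not reported here. Levels are TMM-scaled CPM, although unscaled totals had been planned as the main scale. Lengths came from GENCODE M21 and covered 13151 of the genes tested.

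Totals of 15162309 to 20191558 counts set the precision, and counting error covers reads, not molecules. Libraries of an equal number came from the same mouse, per the labels' protocols, so the numbers pair Tfh and Tn. Deviations from group means correlated at 0.0395 to 0.299 within mice, and 12 of 14 libraries correlated best with that of their own mouse. On simulated counts for the same 13427 genes, 50 genes were changed at each fold size. For TC against B6 in Tfh, the test recovered 82% of genes changed 2-fold and 22% of those changed 1.2-fold. Over all comparisons recovery ran from 70% to 82% at 2-fold and from 4% to 26% at 1.2-fold. Far fewer genes were changed there than were called in the real data (49.7% in TC against B6 Tfh). Recovery was not split by count level. These shares therefore do not show how often such changes in the JAK and STAT genes would be found. Alternatives were DESeq2 1.42.0, limma 3.58.1 voom with the mouse as a random block, RLE factors, TMM without receptor segments, mitochondrial and ribosomal protein genes, other filters, only the groups compared, the mouse as a block, length and GC offsets and leaving out each library.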

Additional observations from a re-analysis of the deposited data

How the results depend on the processing

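The 7 Tfh against Tn calls in B6, those of Jak1, Jak2, Jak3, Tyk2, Stat4 and Stat6 in TC, and the Jak3 strain calls held under every alternative; calls that ended are given with the results, and the cause was not tested. Over all alternatives 958 log2 fold changes kept direction and call, 24 lost and 10 gained a call, and 43 turned sign, all of them uncalled. The replicate block on its own changed no call of the 9 genes. Genes called for the interaction, 312, were 736 with the mouse as a replicate block, 928 with length and GC offsets and the block, 535 in DESeq2, 580 in voom with a random block and 159 to 344 on leaving out each library. On leaving out each library, the members called in TC against B6 Tn ranged from 2 to 4, the lowest without TC Tn replicate 2, and DESeq2 and the length and GC offsets each called 5. Gains included Stat5b lower in B6 Tfh than Tn in voom with a random block (-0.09, adjusted p = 0.0418) and without B6 Tn replicate 4 (-0.11, adjusted p = 0.0452), and Stat3 lower in TC Tn without B6 Tn replicate 1 (-0.17, adjusted p = 0.0476).

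Sign changes were as follows, on the log2 scale. Without a filter, Stat3 in TC Tfh against Tn was -0.0184, and the interaction was -0.0166 for Jak3, -0.0291 for Stat3, -0.0284 for Stat4 and -0.0086 for Stat5b. With length and GC offsets, Stat3 in TC Tfh against Tn was -0.0074, Jak2 and Stat5b in TC against B6 Tfh were 0.0064 and 0.0008, and the interaction was -0.009 for Stat3 and -0.0081 for Stat4. With the replicate block added to those offsets, Stat3 in TC was -0.0061 and the interaction was -0.0098 for Stat3 and -0.0072 for Stat4. In TC against B6 Tfh, a minimum of 50 gave 0.0008 for Jak1, 0.0132 for Jak2 and 0.0068 for Stat5b, and only the groups compared gave 0.0118 for Jak2 and 0.005 for Stat5b. On leaving out each library, Stat3 in Tfh against Tn ranged from -0.0117 to 0.098 in TC and from -0.041 to 0.0586 in B6. In TC against B6 Tfh the ranges were -0.0186 to 0.0208 for Jak1, -0.0415 to 0.0486 for Jak2 and -0.0104 to 0.0251 for Stat5b. The interaction ranged from -0.0333 to 0.0692 for Jak3, -0.0182 to 0.0796 for Stat3 and -0.0367 to 0.0584 for Stat4.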
